A study of Mus musculus with 2 samples.

Results

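The genes described here code for the TGF-beta ligands (*Tgfb1*, *Tgfb2* and *Tgfb3*), their receptors (*Tgfbr1*, *Tgfbr2* and *Tgfbr3*), the latent TGF-beta binding proteins (*Ltbp1*, *Ltbp2* and *Ltbp3*) and the activin beta A subunit (*Inhba*). They were chosen by name, and are 10 of the 14450 genes that had an unambiguous sense tag in at least 1 library. All 10 had tags in both libraries. *Ltbp1* and *Inhba* were higher in GC-2spd (ts) than in GC-1spg by 30.7-fold and 26.6-fold, *Ltbp2*, *Tgfbr3* and *Tgfb3* were lower by 3.77-fold, 2.89-fold and 2.84-fold, and the other 5 genes did not pass the thresholds, which 19.5% of all genes did.

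TGF-beta is secreted as an inactive complex, in which the cleaved propeptide stays wrapped around the mature growth factor. A latent binding protein is often joined to this complex and anchors it to the extracellular matrix, from which proteases or integrins release the active ligand. The ligand binds the type II receptor *Tgfbr2*, which recruits and phosphorylates the type I receptor *Tgfbr1*, and Smad proteins then carry the signal to the nucleus. *Tgfbr3* codes for betaglycan, a co-receptor that presents TGF-beta2 in particular and also binds inhibin. Activin A, a dimer of the *Inhba* product, signals through its own receptors to the same Smad2 and Smad3, and both ligand families act in the testis during the development of germ cells and Sertoli cells.

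The source of GC-1spg, per the labels, is spermatogonia of type B, taken at a donor age of 10 days, and the transforming plasmid is pSV3-neo. For GC-2spd (ts) the labels give a donor mouse of 6 weeks, spermatocytes as the source cell, large T antigen of SV40 as the transforming agent, and a stage before meiosis. Both lines grew in DMEM with serum and sodium bicarbonate, and total RNA from each gave 1 tag library. Every test therefore compared these 2 libraries, with no replicate check, and each line is a single immortalised line.

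The libraries held 5072149 and 4726808 clean tags, so that 1 copy was worth 0.197 TPM (tags per 1000000 clean tags) in GC-1spg versus 0.212 TPM in GC-2spd (ts). No tag with fewer than 2 copies was listed. Of 16 germ cell markers only 2 were listed in either library, *Uchl1* and *Tdrd1*, and *Ddx4*, *Dazl*, *Stra8*, *Sycp1*, *Sycp3* and *Dmc1* were among the 14 that were unlisted in both. The summed level of the germ cell list was 64.9 TPM in GC-1spg versus 14.8 TPM in GC-2spd (ts). For fibroblast markers it was 3307 and 2371 TPM (7 of 10 listed), for Sertoli cell markers 337 and 98.6 TPM (7 of 10), for Leydig cell markers 0.789 and 40.8 TPM (3 of 7), and for peritubular myoid cell markers 13.0 and 123 TPM (6 of 6). Single genes made up much of these sums and did not all move alike. *Uchl1* gave all of the germ cell sum in GC-1spg, with 329 tags versus 66 in GC-2spd (ts), and *Tdrd1* had 0 and 4 tags. *Col1a1* gave 2063 of the 3307 TPM of the fibroblast list in GC-1spg versus 513 of the 2371 TPM in GC-2spd (ts). Of that list, *Col1a1*, *Dcn* and *Pdgfra* had lower TPM in GC-2spd (ts), and *Col1a2*, *Col3a1*, *Vim* and *S100a4* had higher TPM. *Nr5a1* gave 39.8 of the 40.8 TPM of the Leydig cell list in GC-2spd (ts), where *Cyp11a1* was unlisted, and *Acta2* gave 117 of the 123 TPM of the myoid list, of which *Des* had 11 and 4 tags. *Vim* and *Col3a1* of the fibroblast list and *Gata4* of the Sertoli cell list were called higher although their lists' sums were lower. These sums moved between the same 2 libraries as every result below, and their part in the results was not tested. Each library came from 1 cultured line, not from a tissue. Fewer cells of a line with a marker and less of its RNA per cell cannot be told apart in such bulk libraries.

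A DGE tag is the CATG of an *Nla*III site and the 17 bases after it, and 1 tag is taken per transcript, so TPM values need no division by transcript length. The most copied unambiguous sense tag of each gene is printed here 5′ to 3′, because the level of most of these genes rests on 1 such sequence. Capitals mark the *Nla*III site.
Tgfb1: CATGattgtgcgctcctgcaa
Tgfb2: CATGtccggttttgtggtgct
Tgfb3: CATGgatgacttcatctcctg
Tgfbr1: CATGggccctctttagaaaag
Tgfbr2: CATGtattcaaataggaatgt
Tgfbr3: CATGgtctttgtgaacctgct
Ltbp1: CATGgctgtcattttaaacag
Ltbp2: CATGggggaataaaatgttca
Ltbp3: CATGgacccaaggatccttca
Inhba: CATGcagtcaatactttgtac
In 8 of the 10 genes this tag was also the one at the CATG site nearest to the end of its transcript and in the 3′ UTR. The tag of *Tgfb1* was at the site nearest the end too, but in the coding sequence. The tag of *Tgfbr2* was in the 3′ UTR at site 25 counted from the end. The share that this tag took of the gene's tags had overlapping exact 95% intervals in the 2 libraries for all 10 genes. The overlap was narrowest for *Ltbp3*, at 78.6% (63.2 to 89.7) in GC-1spg versus 45.2% (27.3 to 64.0) in GC-2spd (ts), and its main tag and its other tags had log2 ratios of opposite sign, -1.14 (-2.15 to -0.19) and 1.02 (-0.23 to 2.37).

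**Figure D1:**
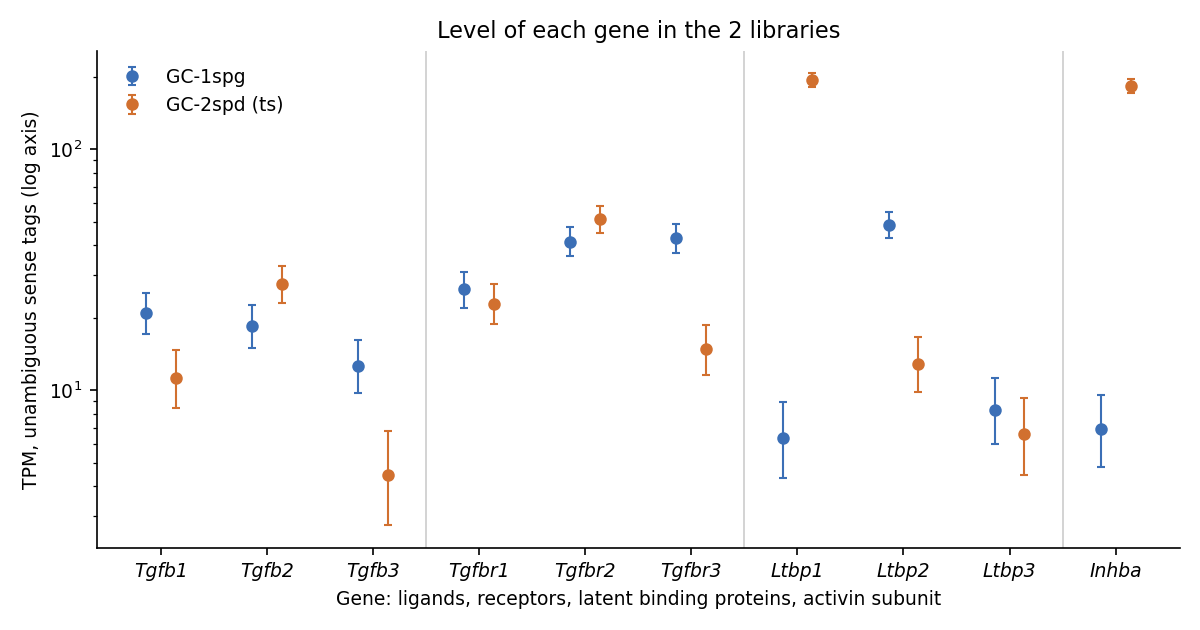
Level of each gene in TPM (log axis) in GC-1spg (blue) and GC-2spd (ts) (orange), 1 library each, with exact 95% Poisson intervals that cover counting error only. *Ltbp1* and *Inhba* lie at 6.31 and 6.90 TPM in GC-1spg and at 194 and 184 TPM in GC-2spd (ts), while *Tgfb3*, *Tgfbr3* and *Ltbp2* lie lower in GC-2spd (ts).

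A gene was called when the false discovery rate (FDR) of the Audic-Claverie test, adjusted over all 14450 genes, was at most 0.001 and the log2 ratio of GC-2spd (ts) over GC-1spg was at least 1 in size. By this rule 2 of the 10 genes were higher in GC-2spd (ts), against 11.7% of all genes, and 3 were lower, against 7.84% of all genes. With TMM scaling, which moved all log2 ratios by -0.17, 8.94% of all genes were higher and 9.99% lower, and the 10 genes gave 2 and 4. The median log2 ratio of the 10 genes, with 0.5 tags added to both counts, was -0.26, and that of all genes was 0.13.

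Among the ligands, *Tgfb1* and *Tgfb3* had fewer tags in GC-2spd (ts) and *Tgfb2* had more, but only the difference in *Tgfb3* was called. *Tgfb3*, the isoform best known from palate and lung development, had 64 tags in GC-1spg versus 21 in GC-2spd (ts), or 12.6 and 4.44 TPM. Its log2 ratio was -1.51 (exact 95% interval -2.29 to -0.78, FDR 3.84e-05). This was the least abundant of the 3 ligands in both libraries. Its main tag, with 38 and 14 copies, was at chr12:86056785-86056805 on the minus strand (GRCm38) in exon 7. A further tag, CATGatgactcggccccagat with 18 and 3 copies, was at chr12:86056881-86056901, and CATGgaatttctgtggtgcag had 5 and 4 copies. With only the site nearest the 3′ end counted the log2 ratio was -1.34 and the FDR 0.00556, so that *Tgfb3* was no longer called.

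*Tgfb1*, the isoform with the widest expression, had 106 tags in GC-1spg versus 53 in GC-2spd (ts), or 20.9 and 11.2 TPM. The log2 ratio was -0.90 (-1.40 to -0.41) at an FDR of 4.95e-04, so the test was passed and the threshold on size was not. TMM scaling put *Tgfb1* at -1.07 with an FDR of 2.33e-05, and it was then called lower. The main tag of *Tgfb1* had 89 and 47 copies and was at chr7:25704912-25704932 on the plus strand, in the coding part of exon 7 and 166 bases from the 3′ end. *Tgfb1* also has 2 tags that match many genes, with 19702 copies in GC-1spg versus 11251 in GC-2spd (ts), and these were left out. Shared equally among all genes they match, they raised *Tgfb1* only to 162 and 85 tags (log2 ratio -0.83, not called).

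*Tgfb2*, the isoform that depends most on betaglycan for receptor binding, had 94 tags in GC-1spg versus 130 in GC-2spd (ts), or 18.5 and 27.5 TPM. The log2 ratio was 0.57 (0.18 to 0.97) at an FDR of 0.0103, and *Tgfb2* was not called. Its tags came from alternative ends of the gene. The main tag had 36 and 52 copies and was at chr1:186622816-186622836 on the minus strand. The tag CATGtaatgtgtagatcttac, with 29 and 51 copies, was at chr1:186624370-186624390, where it is the last site of another annotated transcript. The tag CATGgggtgtattaaaagaca, with 16 and 14 copies, was between these sites, and CATGatgtttgtgacaggagg, with 4 and 8 copies, was upstream of both. Both last sites thus had more copies in GC-2spd (ts).

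In sum the ligands had 264 tags in GC-1spg versus 204 in GC-2spd (ts), or 52.0 and 43.2 TPM (log2 ratio -0.27, interval -0.54 to -0.0012). Their makeup, which does not depend on the scaling between libraries, differed more than their sum. *Tgfb2* made up 35.6% of the ligand tags in GC-1spg (exact 95% interval 29.8 to 41.7) versus 63.7% in GC-2spd (ts) (56.7 to 70.3). The share of *Tgfb1* was 40.2% (34.2 to 46.3) and 26.0% (20.1 to 32.6), and that of *Tgfb3* was 24.2% (19.2 to 29.9) and 10.3% (6.49 to 15.3). The 3 shares are parts of 1 whole, so a larger share of *Tgfb2* goes with smaller shares of the others, and these are not separate results. The intervals of each ligand did not overlap between the 2 libraries, but they cover counting error only. In order of level, *Tgfb1* and *Tgfb2* in GC-1spg could not be separated (ratio of *Tgfb2* to *Tgfb1* 0.887, interval 0.665 to 1.18), whereas *Tgfb2* stood above *Tgfb1* in GC-2spd (ts) (ratio 2.45, interval 1.77 to 3.44).

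**Figure D2:**
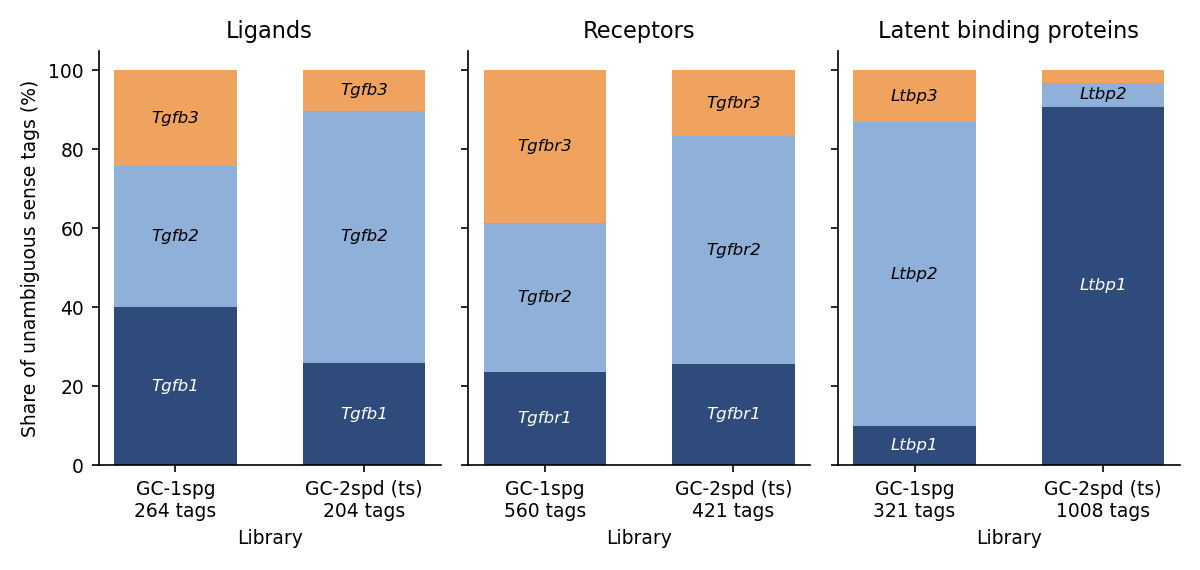
Share of unambiguous sense tags (percent) that each gene takes of the ligands, the receptors and the latent binding proteins in each library. *Tgfb2* takes 35.6% of the ligand tags in GC-1spg versus 63.7% in GC-2spd (ts), and the unlabelled segment at the top right is *Ltbp3* at 3.08%.

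Among the receptors the co-receptor was lower in GC-2spd (ts), and the differences in both signalling receptors were small and not called. *Tgfbr3* had 217 tags in GC-1spg versus 70 in GC-2spd (ts), or 42.8 and 14.8 TPM. Its log2 ratio was -1.53 (-1.94 to -1.14, FDR 1.15e-15). The main tag had 175 and 59 copies and was at chr5:107106644-107106664 on the minus strand, 95 bases from the 3′ end. The next tag, CATGctacctgtgtttaaaaa, had 27 and 6 copies and was at chr5:107108026-107108046. The main tag and the sum of the other tags were both lower in GC-2spd (ts), with log2 ratios of -1.47 (-1.92 to -1.03) and -1.83 (-2.94 to -0.85).

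*Tgfbr1*, the type I receptor kinase, had 133 tags in GC-1spg versus 108 in GC-2spd (ts), or 26.2 and 22.8 TPM. The log2 ratio was -0.20 (-0.58 to 0.18, FDR 0.385), an interval that leaves room for a small difference either way. *Tgfbr2*, the type II receptor kinase, had 210 and 243 tags, or 41.4 and 51.4 TPM, with a log2 ratio of 0.31 (0.040 to 0.59, FDR 0.0508). Neither interval reached a log2 ratio of 1 in size. The main tag of *Tgfbr1* (129 and 105 copies) was at chr4:47414165-47414185 on the plus strand, 767 bases from the 3′ end. That of *Tgfbr2* (197 and 224 copies) was at chr9:116087817-116087837 on the minus strand, 3545 bases from the end of an annotated transcript of 8092 bases. It held 93.8% (89.6 to 96.7) of the *Tgfbr2* tags in GC-1spg and 92.2% (88.1 to 95.2) in GC-2spd (ts), so the same inner site was used in both libraries.

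The receptors had 560 tags in GC-1spg versus 421 in GC-2spd (ts), or 110.4 and 89.1 TPM (log2 ratio -0.31, interval -0.50 to -0.12). *Tgfbr3* made up 38.8% of these tags in GC-1spg (34.7 to 42.9) versus 16.6% in GC-2spd (ts) (13.2 to 20.5). *Tgfbr2* made up 37.5% (33.5 to 41.7) and 57.7% (52.8 to 62.5), and *Tgfbr1* 23.8% (20.3 to 27.5) and 25.7% (21.5 to 30.1), which overlap. There was 1 *Tgfbr3* tag to each *Tgfbr2* tag in GC-1spg within error (ratio 1.03, interval 0.851 to 1.26), and fewer in GC-2spd (ts) (ratio 0.288, interval 0.218 to 0.377). *Tgfbr2* stood above *Tgfbr1* in both libraries, with ratios of 1.58 (1.26 to 1.98) and 2.25 (1.79 to 2.85).

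The latent binding proteins differed most in makeup. *Ltbp1*, which anchors latent TGF-beta to fibrillin and fibronectin fibres, had 32 tags in GC-1spg versus 916 in GC-2spd (ts), or 6.31 and 194 TPM. Its log2 ratio of 4.94 (4.43 to 5.50, FDR 1.27e-237) was the 35th highest of the 11373 genes that were listed in both libraries. By level it stood at place 7832 of 13066 genes in GC-1spg and at place 551 of 12757 in GC-2spd (ts). The main tag had 29 and 849 copies and was at chr17:75390810-75390830 on the plus strand, in the 3′ UTR part of exon 34 and 958 bases from the 3′ end. The other unambiguous sense tags of *Ltbp1* had 3 copies together in GC-1spg versus 67 in GC-2spd (ts) (log2 ratio 4.58, interval 2.97 to 6.90). The difference thus did not rest on a single tag.

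*Ltbp2*, which binds fibrillin but, unlike the other family members, not latent TGF-beta, went the other way. It had 247 tags in GC-1spg versus 61 in GC-2spd (ts), or 48.7 and 12.9 TPM, with a log2 ratio of -1.92 (-2.34 to -1.51, FDR 5.99e-24). Its main tag at chr12:84783218-84783238 on the minus strand, in exon 36 and 27 bases from the 3′ end, had 241 and 61 copies and was the only one listed in GC-2spd (ts). *Ltbp1* was the rarer of the pair in GC-1spg and the more abundant in GC-2spd (ts), with a ratio of *Ltbp1* to *Ltbp2* tags of 0.130 (0.0867 to 0.188) and 15.0 (11.6 to 19.8).

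*Ltbp3*, which also binds latent TGF-beta, had 42 unambiguous tags in GC-1spg versus 31 in GC-2spd (ts), or 8.28 and 6.56 TPM, and was not called (log2 ratio -0.34, interval -1.05 to 0.37, FDR 0.432). These counts leave out 8 tags with 1116 copies in GC-1spg versus 960 in GC-2spd (ts), because each of them also matches 1 other gene. With sense matches preferred over antisense matches of other genes, *Ltbp3* had 1158 and 991 tags, which gave a log2 ratio of -0.12 (FDR 0.0934), so the absence of a call did not change and the level did. The unambiguous main tag at chr19:5758195-5758215 had 33 and 14 copies. It is near the end of a shorter transcript, and the tags CATGtgtaccacgtacatacc and CATGggtgtgaggaggtggag had 2 and 8 and 5 and 3 copies.

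The latent binding proteins had 321 tags in GC-1spg versus 1008 in GC-2spd (ts), or 63.3 and 213 TPM (log2 ratio 1.75, interval 1.57 to 1.94). *Ltbp2* made up 76.9% of them in GC-1spg (71.9 to 81.4) versus 6.05% in GC-2spd (ts) (4.66 to 7.71), while *Ltbp1* made up 9.97% (6.92 to 13.8) and 90.9% (88.9 to 92.6). *Ltbp3* made up 13.1% (9.60 to 17.3) and 3.08% (2.10 to 4.34). The sum and the shares depend on how the shared *Ltbp3* tags are counted. With sense matches preferred the sum was 1441 tags in GC-1spg versus 1968 in GC-2spd (ts), or 284 and 416 TPM, and its log2 ratio was 0.55 (0.45 to 0.65). *Ltbp3* then took 80.4% (78.2 to 82.4) in GC-1spg and 50.4% (48.1 to 52.6) in GC-2spd (ts), *Ltbp1* took 2.22% (1.52 to 3.12) and 46.5% (44.3 to 48.8), and *Ltbp2* 17.4% (15.5 to 19.5) and 3.10% (2.38 to 3.96). Each of the 3 shares differed in the same direction under both ways of counting, but the gene with the largest share did not stay the same.

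*Inhba* had 35 tags in GC-1spg versus 869 in GC-2spd (ts), or 6.90 and 184 TPM. Its log2 ratio of 4.74 (4.25 to 5.27, FDR 4.33e-220) was the 41st highest of the 11373 genes, and it stood at place 7661 by level in GC-1spg and at place 599 in GC-2spd (ts). The main tag had 25 and 727 copies and was at chr13:16031512-16031532 on the plus strand, in the 3′ UTR part of exon 5 and 110 bases from the 3′ end. The other unambiguous sense tags had 10 and 142 copies (log2 ratio 3.93, interval 3.01 to 5.02). *Inhba* and *Ltbp1* had nearly the same number of tags in each library, with a ratio of 1.09 (0.658 to 1.82) in GC-1spg and 0.949 (0.864 to 1.04) in GC-2spd (ts).

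A further tag of *Inhba*, CATGattgtggaggagtgtgg in the coding sequence at chr13:16027099-16027119, also occurs in *Nodal*, another ligand of the TGF-beta superfamily, and was left out of the counts. It had 3 copies in GC-1spg versus 94 in GC-2spd (ts), and *Nodal* had no unambiguous sense tag in either library. Its first 10 bases, CATGATTGTG, are also those of the main *Tgfb1* tag in the coding sequence of that gene, and the 2 tags had equal bases at 12 of 21 positions. The *Tgfb1* tag nevertheless had fewer copies in GC-2spd (ts), 47 against 89.

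**Figure D3:**
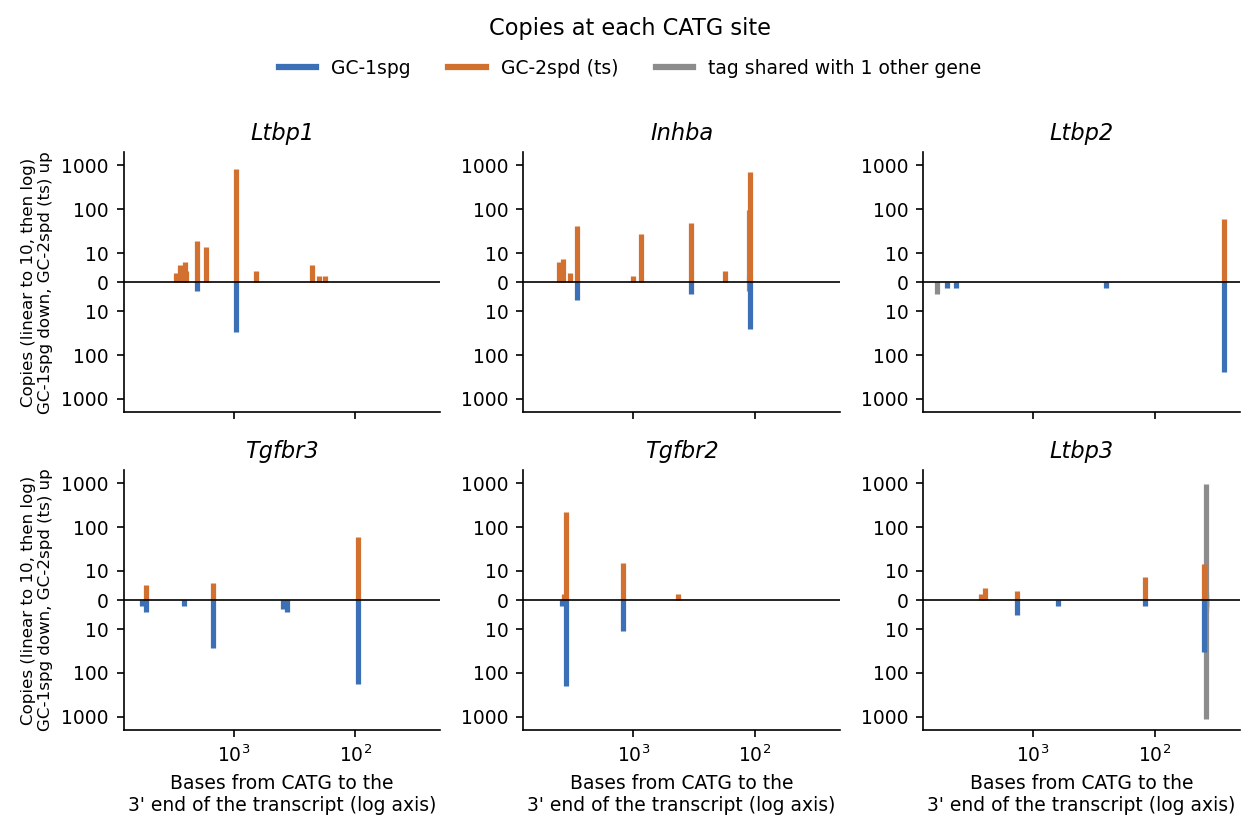
Copies of each sense tag by the distance of its CATG from the 3′ end of the transcript it was placed in (bases, log axis), with GC-1spg downwards and GC-2spd (ts) upwards on a copy axis that is linear to 10 and logarithmic beyond. Grey bars are tags shared with 1 other gene, which for *Ltbp3* reach 1103 and 955 copies, and *Tgfbr2* has its main tag 3545 bases from the end.

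**Figure D4:**
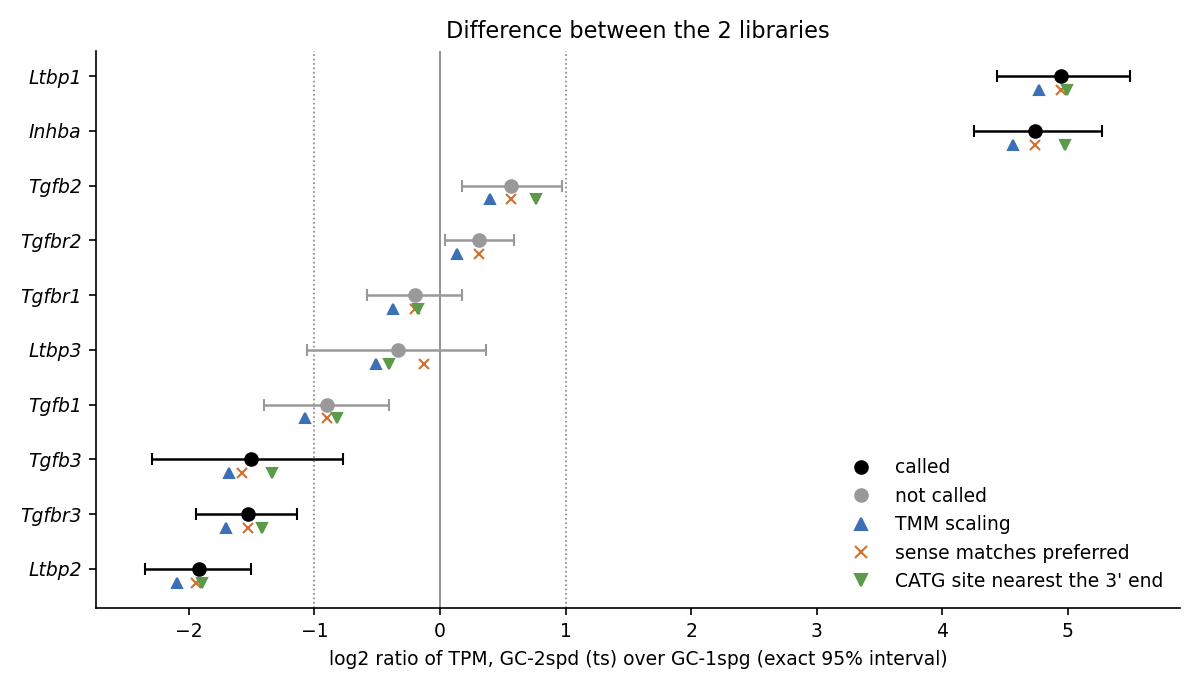
The log2 ratio of GC-2spd (ts) over GC-1spg for each gene with its exact 95% interval, called genes in black and others in grey, with dotted lines at a ratio of 1 in size. Small symbols give the ratio with TMM scaling, with sense matches preferred and with tags of the last CATG site alone, which *Tgfbr2* does not have listed, and no symbol lies on the other side of 0 from its main value.

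The activin system, to which *Inhba* belongs, had 9 of the 16 other genes on its list detected, of which 0 were called higher and 3 lower (median log2 ratio -0.80, or -0.35 with the gene at 0 in 1 library set to its limit). The 3 lower genes were 33.3% of those detected, beside 7.84% of all genes. *Inhbb*, the activin beta B subunit, had 117 tags in GC-1spg versus 16 in GC-2spd (ts), giving a log2 ratio of -2.77 (-3.62 to -2.01). Of the *Inhba* and *Inhbb* tags together, *Inhba* thus made up 23.0% (16.6 to 30.5) in GC-1spg and 98.2% (97.1 to 99.0) in GC-2spd (ts). *Fst*, follistatin, which binds and blocks activin, had 40 and 6 tags (log2 ratio -2.64, -4.16 to -1.39). *Acvr1*, a type I receptor of the family, had 178 and 60 tags (log2 ratio -1.47, -1.91 to -1.04). *Fstl1*, a secreted follistatin-like protein, and the ligand *Gdf11* were not called, with 877 and 1509 and with 63 and 77 tags. *Fstl1* missed only the threshold on size (log2 ratio 0.88, FDR 1.74e-47), and *Gdf11* had an FDR of 0.213.

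For the genes of TGF-beta latency and activation, 21 of 24 were listed, 7 were higher and 6 lower, with a median log2 ratio of 0.10 that became -0.07 with TMM scaling. The called genes were 33.3% and 28.6% of those listed, beside 11.7% and 7.84% of all genes. *Thbs1*, thrombospondin, which can activate latent TGF-beta, had 195 tags in GC-1spg versus 1831 in GC-2spd (ts) (log2 ratio 3.33, 3.12 to 3.55). *Fbn1*, the fibrillin of the microfibrils that hold latent complexes, had 26 and 375 tags (3.95, 3.38 to 4.59). The matrix proteases *Mmp2* and *Mmp14* had 454 and 1586 and 41 and 363 tags, and were called higher. *Itgb1*, an integrin subunit, was higher with 929 and 2194 tags. The 2 small proteoglycans known to bind TGF-beta went opposite ways. *Bgn*, biglycan, had 138 and 1080 tags (3.07, 2.81 to 3.34), and *Dcn*, decorin, had 710 and 2 (-8.37, -11.42 to -6.51). *Plat*, tissue plasminogen activator, was lower with 357 and 67 tags. *Itgav* and *Bmp1* were the most copied genes not called, with 812 and 960 and with 413 and 208 tags, and *Bmp1* was called lower with TMM scaling. Both passed the test and missed only the threshold on size (0.34 and -0.89). Chosen after their values were seen, *Ltbp4*, the remaining member of the latent binding family, had 88 and 2 tags (-5.36, -8.43 to -3.46), and *Lrrc32*, which tethers latent TGF-beta to the cell surface, had 0 and 120 tags, at least 20.5-fold higher.

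All 8 Smad genes were listed, 3 were called higher and 0 lower, with a median log2 ratio of 0.92. The 3 were 37.5% of the list, beside 11.7% of all genes. With TMM scaling 2 were higher, or 25% beside 8.94% of all genes. *Smad1*, a mediator of BMP signals, had 56 tags in GC-1spg versus 341 in GC-2spd (ts) (2.71, 2.30 to 3.14). *Smad2*, which carries TGF-beta and activin signals, had 39 and 103 (1.50, 0.96 to 2.07). The inhibitory *Smad7* had 308 and 598 (1.06, 0.86 to 1.26) and was not called with TMM scaling. *Smad3*, the partner of *Smad2* in the pathway, had 382 and 202 tags and the common *Smad4* 111 and 178, neither of them called. Both passed the test and missed only the threshold on size (-0.82 and 0.78).

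Of 14 negative regulators 13 were listed, and 2 were higher and 0 lower (median 0.51). The 2 were 15.4% of those listed, near the 11.7% of all genes. With TMM scaling 1 was higher, or 7.69% beside 8.94% of all genes. The pseudoreceptor gene *Bambi* had 0 tags in GC-1spg versus 31 in GC-2spd (ts), a level at least 7.01-fold higher, and *Pmepa1*, which sequesters Smad proteins, had 415 and 813 (1.07, 0.90 to 1.25) and was not called with TMM scaling. *Fkbp1a*, whose product binds the type I receptor, and the repressor *Ski* were not called, with 608 and 394 and with 313 and 540 tags. Both passed the test and missed only the threshold on size (-0.52 and 0.89). Of 10 other receptors and adaptors 9 were listed, and 4 were higher and 1 lower (median 0.52). These were 44.4% and 11.1%, beside 11.7% and 7.84% of all genes. With TMM scaling they were 22.2% and 11.1%, beside 8.94% and 9.99% of all genes. *Eng*, endoglin, a co-receptor related to betaglycan, had 0 and 34 tags, at least 4.71-fold higher, while *Tgfbr3* itself was lower. *Zfyve9*, which presents Smad proteins to the receptor, had 59 and 155 tags (1.50, 1.05 to 1.95). *Strap* with 564 and 1166 tags and *Tgfbrap1* with 42 and 87 were called higher, but not with TMM scaling. The adaptor *Dab2* was lower with 2869 and 884 tags (-1.60, -1.71 to -1.49), and *Tab2* and *Map3k7*, with 412 and 429 and with 293 and 391 tags, were not called. *Map3k7* missed only the threshold on size (0.52, FDR 1.46e-05), and *Tab2* had an FDR of 0.192.

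Of 24 textbook targets of TGF-beta 23 were listed, and 7 were higher and 3 lower (median 0.69). These were 30.4% and 13.0%, beside 11.7% and 7.84% of all genes. With TMM scaling they were 26.1% and 17.4%, beside 8.94% and 9.99% of all genes. *Ccn2*, connective tissue growth factor, had 196 tags in GC-1spg versus 990 in GC-2spd (ts) (2.44, 2.22 to 2.67), and *Acta2*, smooth muscle actin, had 50 and 555 (3.57, 3.16 to 4.02). *Postn*, periostin, had 0 and 175 tags, at least 29.8-fold higher. *Tgfb1i1*, a focal adhesion protein, had 69 and 245 and the collagen gene *Col3a1* 50 and 120, both called higher. In the other direction, *Col1a1* had 10465 and 2425 tags (-2.01, -2.07 to -1.94) and the inhibitor of differentiation *Id1* 1386 and 481 (-1.43, -1.58 to -1.27). *Fn1*, fibronectin, had 2351 and 1211 tags and missed only the threshold on size (-0.86, FDR 1.53e-64). It was called lower with TMM scaling, and *Id3*, with 1330 and 1280 tags, was not called. The list was not split by whether TGF-beta raises or lowers a target, and a response to TGF-beta was not tested. *Acta2* is also a peritubular myoid cell marker, and *Col1a1*, *Col3a1* and *Dcn* are fibroblast markers. *Inhbb* of the activin system is also on the list of Sertoli cell markers.

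Over all of these lists together 83 of 95 genes were listed, and 27.7% of them were higher and 15.7% lower, beside 11.7% and 7.84% of all genes. Genes with few tags can hardly be called and lower the shares over all genes. Of the 11298 genes with at least 10 tags over both libraries, 1699 were higher and 1172 lower. The lists then had 23 higher and 14 lower. With TMM scaling 21.7% were higher and 19.3% lower, or 18 and 16 genes in place of 23 and 13, beside 8.94% and 9.99% of all genes. Their median log2 ratio was 0.39 (0.47 with genes at 0 in 1 library set to their limits), beside 0.13 for all genes, and with TMM scaling 0.22 beside -0.04.

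**Figure D5:**
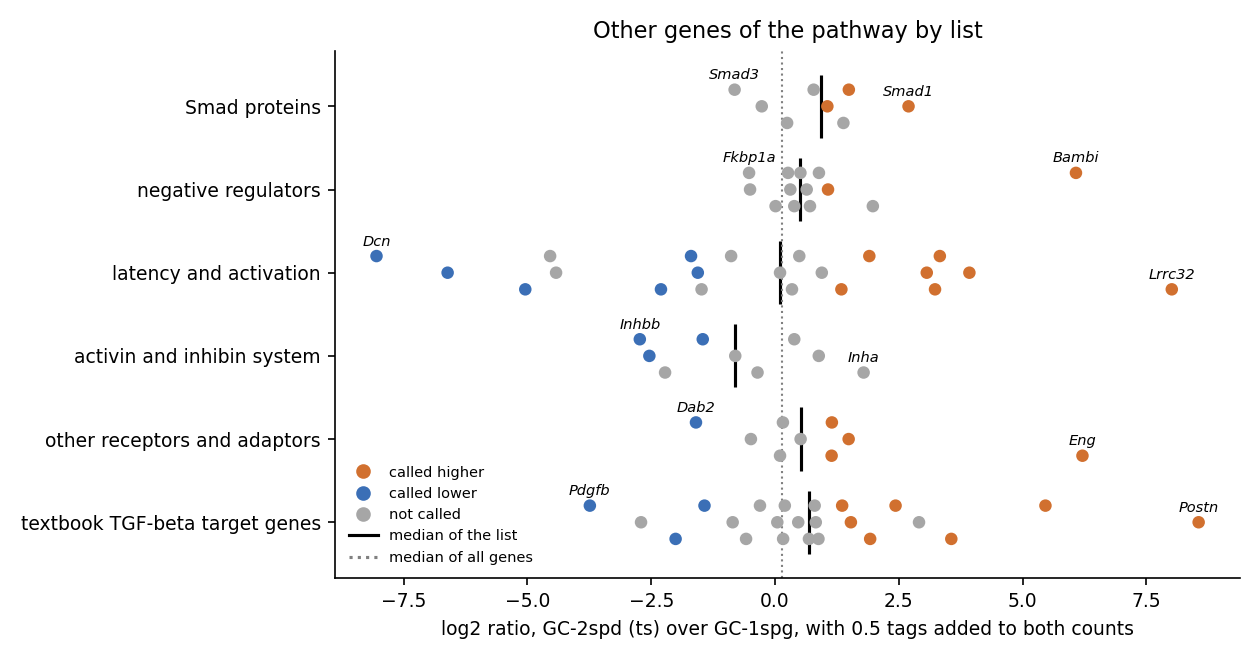
The log2 ratio of GC-2spd (ts) over GC-1spg, with 0.5 tags added to both counts, for each listed gene of the pathway lists, coloured by call and labelled at the lowest and the highest gene of each list. Black lines are the medians of the lists, from -0.80 for the activin and inhibin system to 0.92 for the Smad proteins, and the dotted line is the median of all genes at 0.13.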

How the data were processed

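Tag libraries were made from polyadenylated RNA with *Nla*III and *Mme*I. The authors removed adaptor, low quality and single copy tags and deposited each remaining tag with its raw count and its TPM, which is that count over all clean tags. Tags were matched here to every CATG+17 site of GENCODE M21 transcripts (GRCm38) on both strands, with exact matches before those with 1 mismatch, and kept when the best matches fell in 1 gene, which held for 54.7% of the clean tags of GC-1spg and 57.9% of those of GC-2spd (ts) on the sense strand. Sense counts were summed by gene. Genes at 0 were set to 0.01 TPM for the log2 ratio.

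The two-sided Audic-Claverie test with Benjamini-Hochberg adjustment was used, because edgeR's quasi-likelihood test could not be fitted to 1 library per line. Intervals are exact (Clopper-Pearson or Poisson, 95%), and cover counting error only, since PCR copies cannot be told from molecules. Where 1 library lists no tag of a gene, its upper limit is a one-sided 95% Poisson bound, computed as if each distinct tag of the gene in the library that lists it had gone unlisted as a single copy. Shares were also tested by Fisher's exact test, but those p-values were adjusted over the chosen genes alone and are not given. The calling and the intervals were tested on simulated Poisson counts. These hold counting error only, so that test cannot show how the calls behave under spread between cultures. Named genes are the 10 genes and, from each of 6 pathway lists, up to 8 called genes with the most tags and the 2 most copied genes not called. A gene that this rule names is not reported here. The genes and the lists were chosen with earlier results of these data known. There were 17 alternatives in matching, scaling, filters and tests. R 4.3.3 with edgeR 4.0.16 and DESeq2 1.42.0 (size factors), together with Python 3.11.15, scipy 1.17.1, pandas 2.3.3, numpy 2.4.6 and matplotlib 3.10.9, did the computing.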

Additional observations from a re-analysis of the deposited data

Results flagged for a closer look

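Antisense tags were left out of the main counts and entered only the alternative that counted sense and antisense tags together. Of the 10 genes, 8 had more of them than the 3 counts that a count of 0 allows. *Inhba* had 226 antisense copies over both libraries, 6 in GC-1spg versus 220 in GC-2spd (ts), which gives a log2 ratio of 5.30 (exact 95% interval 4.15 to 6.76). *Ltbp1* had 117, of which 5 were in GC-1spg versus 112 in GC-2spd (ts), which gives a log2 ratio of 4.59 (3.32 to 6.24). In both genes the antisense tags differed in the direction of the sense tags, whose log2 ratios were 4.74 and 4.94. *Tgfbr3* had 116 antisense copies (66 and 50), with a log2 ratio of -0.30 (-0.86 to 0.25) that does not overlap the sense interval of -1.94 to -1.14. *Tgfbr2* had 86 (43 and 43), *Tgfb2* 74 (32 and 42), *Tgfb3* 11, *Ltbp3* 7 and *Ltbp2* 4, and in these last 3 genes every antisense copy was in GC-1spg. Of the 40 antisense tags that matched exactly, 21 started at the CATG of a listed sense tag of the same gene. The source of the antisense tags was not tested.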

How the results depend on the processing

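No paired analysis was possible because each line had 1 library. Over the 17 alternatives, *Ltbp1* and *Inhba* stayed called higher in every one, with log2 ratios from 4.77 to 4.99 and from 4.56 to 4.98, and no gene of the 10 changed direction. With edgeR's exact test at an assumed BCV of 0.2, the genes called lower fell from 3 to 1 and the pathway list calls from 23 higher and 13 lower to 14 and 7. At a BCV of 0.4 they were 0, and 3 and 3. *Tgfb3* lost its call at a BCV of 0.1, 0.2 and 0.4 and with the site nearest the 3′ end only, *Tgfbr3* at 0.2 and 0.4, and *Ltbp2* at 0.4. *Tgfb1* gained a call with TMM (-1.07) and with size factors (-1.06). TMM also changed the calls over all genes from 59.8% higher to 47.2% higher. *Tgfb1* could not be counted with the longest transcript only, nor *Tgfbr2* with the site nearest the 3′ end only. The spread between cultures is unknown, so that smaller differences cannot be told from it, and genes with few tags, such as *Ltbp3* with 42 and 31, carry wide intervals.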
